A study of Homo sapiens with 12 samples.

Results

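Axon guidance ligands and receptors are the secreted and membrane-bound proteins that steer growing axons and migrating cells. Their genes were picked by symbol in the annotation of the array platform: EPHA, EPHB, EFNA, EFNB, SLIT, ROBO, NRP or NTN followed by a number, any SEMA or PLXN gene, UNC5A to UNC5D, and NRN1. Of the 14884 genes with a symbol on the arrays, 44 met the rule, and each had 1 row of values (a transcript cluster, the set of probes for a gene). They were 13 Eph receptors, 8 ephrins, 3 Slits, 8 netrins and UNC5 receptors, 11 plexins and neuropilins, and neuritin (NRN1). Semaphorin and Robo genes, EPHB2 and protein levels were not analysed here.

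The cells were BT-549, a human triple-negative breast cancer line of mesenchymal-like character, and the study followed their gene expression after down-regulation of the calcium- and lipid-binding protein annexin A6 (AnxA6, gene ANXA6). BT-A6sh5 and BT-A6sh2 are lines stably transfected with different shRNAs against ANXA6, and BT-EV is the control line, which carries the empty vector (the labels call it a control shRNA). All 3 lines are sub-clones of BT-549 grown in serum-containing medium, so the effect of an shRNA and the history of a sub-clone cannot be told apart. Each line has 4 Affymetrix Human Gene ST arrays, called technical replicates in the paper and biological ones in the sample titles, so p-values measure only the spread between these arrays.

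In the nervous system, Eph receptor tyrosine kinases bind ephrins on neighbouring cells, and both sides can signal. Slits repel through Robo receptors, netrins attract through DCC and repel through UNC5 receptors, and semaphorins act through plexins, with neuropilins as co-receptors for the secreted ones. These routes converge on small GTPases that remodel the actin cytoskeleton. In epithelia and tumors the same proteins are known to act in cell adhesion, migration and the guidance of blood vessels.

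AnxA6 knockdown went with a few large changes among the axon guidance genes, most of them in BT-A6sh5. In BT-EV the level of the receptor gene EPHA3 lay below the median of the background probe sets. With the BT-EV values raised to that median, EPHA3 was 15.9-fold higher in BT-A6sh5, and NRN1 was 14.6-fold lower. Neither passed the test in BT-A6sh2 against BT-EV. The ligand gene SLIT2 was higher in both knockdown lines. NRP2, a co-receptor gene, and EPHA4, a receptor gene, changed in opposite directions in the 2 lines. These were the 5 genes of the 44 that passed the test with a change of at least 2-fold in at least 1 comparison. The test was limma's, fitted on all 53617 rows of the arrays, with a change called at an adjusted p under 0.05. Rises, falls and differences are given in log2 units unless written as a fold. BT-A6sh5 and BT-A6sh2 share their BT-EV arrays, so their changes against BT-EV are not independent of each other.

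The targeted gene was lower in both knockdown lines. The log2 level of ANXA6 was 8.83, 8.89, 8.72 and 8.69 in BT-A6sh5, 10.57, 10.32, 10.50 and 10.41 in BT-A6sh2, and 11.43, 11.42, 11.37 and 11.40 in BT-EV. The 3 lines did not overlap. The log2 fold change against BT-EV was -2.63 in BT-A6sh5 (standard error 0.0855, adjusted p = 2.21e-09, limma) and -0.96 in BT-A6sh2 (standard error 0.0855, adjusted p = 0.000158, limma). BT-A6sh2 replicates 1 and 3 stood apart from the other arrays, with a standard deviation over all rows of 2.18 and 2.19 against 2.26 to 2.33, and the description of replicate 1 names the other shRNA. Arrays of the same line had a mean correlation of 0.986 (BT-A6sh5), 0.961 (BT-A6sh2) and 0.993 (BT-EV). Hybridization controls, transcripts of other species added to each sample, had log2 means of 8.50 to 8.92 in BT-A6sh5, 8.66 to 9.05 in BT-A6sh2 and 8.10 to 8.29 in BT-EV. Of 7 mesenchymal markers measured, the mean log2 level over the list was 9.36 to 9.45 on BT-A6sh5 arrays, 9.48 to 9.59 on BT-A6sh2 arrays and 9.62 to 9.69 on BT-EV arrays. SNAI2 and AXL fell in BT-A6sh5 (log2 fold change -1.23 and -0.30, adjusted p = 4.93e-07 and 0.036, limma), and in BT-A6sh2 AXL rose and FN1 fell (0.37 and -0.43, adjusted p = 0.0202 and 0.00757). VIM (vimentin), TWIST1, ZEB1 and ZEB2 passed in neither line against BT-EV. Of 7 epithelial markers, EPCAM had log2 means of 3.66, 3.72 and 3.47 in BT-A6sh5, BT-A6sh2 and BT-EV, below the median of 23 background probe sets (3.99, 4.11 and 4.02), while the other 6 lay above it. In BT-A6sh5 0 epithelial markers passed, and in BT-A6sh2 CLDN3 and KRT18 fell (-0.46 and -0.53, adjusted p = 0.0301 and 0.0477). The mean log2 level over the epithelial list was 5.76 to 5.90 in BT-A6sh5, 5.45 to 5.85 in BT-A6sh2 and 5.79 to 5.92 in BT-EV. ESR1 and PGR, receptor genes that triple-negative lines lack, passed in no comparison. Of 10 neuron markers, 4 were measured, with a mean log2 level over the list of 5.69 to 5.96 in BT-A6sh5, 5.62 to 6.16 in BT-A6sh2 and 5.76 to 6.0 in BT-EV. DCX, STMN2 and SYP passed in no comparison (means of the lines from 4.23 to 6.33), and MAP2 fell in both knockdown lines (log2 fold change -0.56 in BT-A6sh5 and -0.42 in BT-A6sh2, adjusted p = 0.00112 and 0.0154, limma). The part of these values in the results below was not tested.

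**Figure D1:**
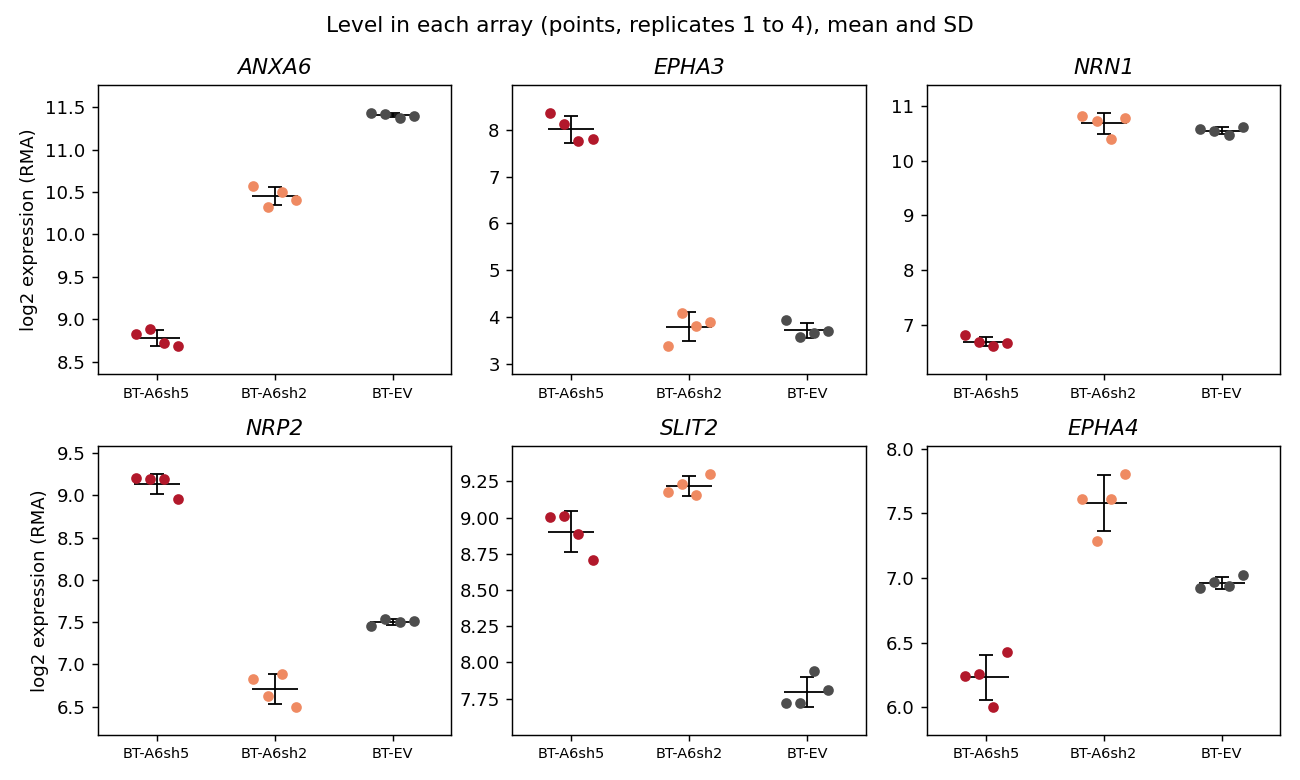
Log2 level (RMA, vertical axis) of ANXA6 and of the 5 axon guidance genes that passed the test with a 2-fold change, in BT-A6sh5 (left), BT-A6sh2 (middle) and BT-EV (right). Points are arrays, and bars are the mean and SD of 4 arrays. EPHA3 lies at 7.75 to 8.36 in BT-A6sh5 and under 4.1 in the other lines, and SLIT2 is above BT-EV in both knockdown lines.

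In BT-A6sh5, 6 of the 44 genes were higher than in BT-EV (13.6%) and 12 were lower (27.3%). Among all named genes these shares were 6.3% and 12.7%, and of all rows 4.11% and 6.71%. In BT-A6sh2 the same counts against BT-EV were 4 (9.09%) and 5 (11.4%), with 5.13% and 4.78% of named genes and 5.35% and 3.13% of all rows. Between the knockdown lines, BT-A6sh5 exceeded BT-A6sh2 for 5 genes (11.4%) and lay below it for 16 (36.4%). For named genes these shares were 11.3% and 17.3%, and for all rows 8.16% and 11.4%, so the share higher in BT-A6sh5 was close to that of named genes. At a 2-fold change in either direction, 4 of 44 genes passed in BT-A6sh5 against BT-EV (9.09%, with 3.18% of named genes), 1 in BT-A6sh2 against BT-EV (2.27%, with 0.692%) and 4 between the knockdown lines (9.09%, with 3.86%). The median log2 fold change of the 44 genes was near 0 in each comparison (-0.05, -0.01 and -0.02), as it was over named genes (0.01, 0.00 and -0.02). The median size of the log2 fold change was 0.24, 0.14 and 0.32 over the 44 genes, against 0.18, 0.18 and 0.24 over named genes. Without BT-A6sh2 replicates 1 and 3, 6 genes were higher and 13 lower in BT-A6sh5, 3 higher and 4 lower in BT-A6sh2, and 6 higher and 11 lower between the knockdown lines. Whether the list as a whole stands apart from other genes was not tested.

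In all, 25 of the 44 genes passed in at least 1 comparison. NRP1, PLXNA3, PLXNB3 and SLIT2 passed in both knockdown lines in the same direction, EPHA4 and NRP2 in opposite directions, 12 genes in BT-A6sh5 alone and 3 (EFNA1, EFNB1 and PLXNA2) in BT-A6sh2 alone. Of named genes, 19% passed in BT-A6sh5 against BT-EV, 9.92% in BT-A6sh2 against BT-EV and 28.6% between the knockdown lines. Passing in at least 1 comparison, in both lines or in 1 line alone was not counted over named genes, so these counts only describe the 44 genes. Passing in 1 line and not in the other does not show a difference between the lines, which was tested on its own and is given for each gene below. When the mean of the hybridization controls was added as a covariate, 28 of the 48 calls made over the 3 comparisons were lost. All 28 kept their direction, with 0.403 to 1.63 times the log2 fold change they had without the covariate (median 0.892). Of these, 23 were calls against BT-EV, whose standard errors were 1.74 to 2.46 times as large. PLXNA3 in BT-A6sh5 had -0.83 in that fit (adjusted p = 0.0665), and SLIT2 in BT-A6sh2 had 1.64 (adjusted p = 0.103). In the same fit 3 genes were higher (EPHA3, NRP2 and SLIT2) and 1 was lower (NRN1) in BT-A6sh5 than in BT-EV, and 0 passed in BT-A6sh2. The range of the controls in BT-EV did not overlap that in either knockdown line.

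**Figure D2:**
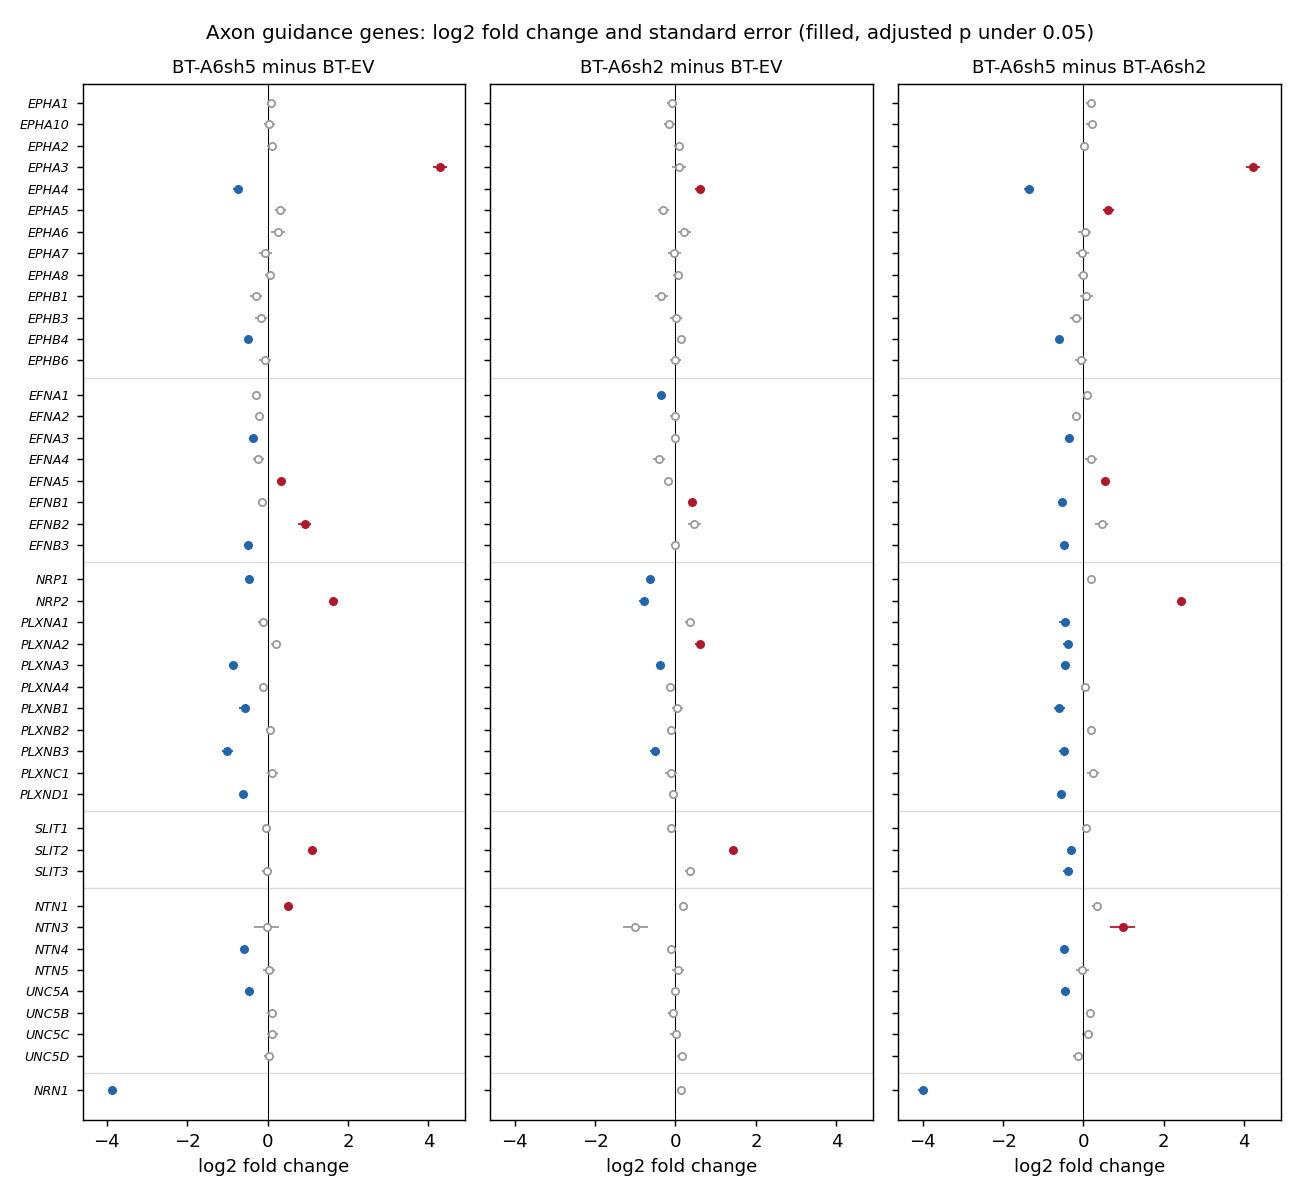
Log2 fold change (horizontal axis) with its standard error for each of the 44 axon guidance genes, grouped by family, in BT-A6sh5 against BT-EV (left), BT-A6sh2 against BT-EV (middle) and BT-A6sh5 against BT-A6sh2 (right). Filled points passed the test (adjusted p under 0.05), red for higher and blue for lower. EPHA3 and NRN1 lie near 4 and -4 in the left and right panels and near 0 in the middle one.

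The regions just upstream of the 5 genes that passed with a 2-fold change (SLIT2, NRP2, EPHA4, EPHA3 and NRN1) are shown. These genes were picked by their changes, and no relation between the windows and the changes was tested. Each window holds the 250 bases before the start of the gene in RefSeq (GRCh38.p14), written along the strand of the gene. Capitals mark matches to the GC box GGGCGG or the CCAAT box (letters CCAAT) on either strand. The windows were also searched, on both strands, for the E-box CACGTG, for the AP-1 motif TGACTCA and for the TATA motif TATAAA. SLIT2 lies at chr4:20251655-20251904 (plus strand), NRP2 at chr2:205682251-205682500 (plus strand), EPHA3 at chr3:89107371-89107620 (plus strand), EPHA4, which has a pair of start sites in the table, at chr2:221574203-221574452 and chr2:221572305-221572554 (minus strand), and NRN1 at chr6:6004026-6004275 (minus strand).
SLIT2: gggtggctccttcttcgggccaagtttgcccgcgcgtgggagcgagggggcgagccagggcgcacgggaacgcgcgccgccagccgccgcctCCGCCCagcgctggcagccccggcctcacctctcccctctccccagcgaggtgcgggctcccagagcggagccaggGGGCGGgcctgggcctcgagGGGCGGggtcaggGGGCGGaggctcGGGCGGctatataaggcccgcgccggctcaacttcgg
NRP2: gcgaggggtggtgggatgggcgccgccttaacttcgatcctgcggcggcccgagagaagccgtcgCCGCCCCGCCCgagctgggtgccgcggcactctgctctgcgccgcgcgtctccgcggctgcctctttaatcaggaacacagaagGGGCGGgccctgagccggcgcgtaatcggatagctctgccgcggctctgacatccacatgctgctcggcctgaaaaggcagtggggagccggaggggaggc
EPHA4 upstream start: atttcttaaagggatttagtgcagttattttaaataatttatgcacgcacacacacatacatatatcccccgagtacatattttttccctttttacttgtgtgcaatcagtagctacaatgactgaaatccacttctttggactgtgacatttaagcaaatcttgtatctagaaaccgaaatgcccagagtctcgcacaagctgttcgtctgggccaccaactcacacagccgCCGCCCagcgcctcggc
EPHA4 downstream start: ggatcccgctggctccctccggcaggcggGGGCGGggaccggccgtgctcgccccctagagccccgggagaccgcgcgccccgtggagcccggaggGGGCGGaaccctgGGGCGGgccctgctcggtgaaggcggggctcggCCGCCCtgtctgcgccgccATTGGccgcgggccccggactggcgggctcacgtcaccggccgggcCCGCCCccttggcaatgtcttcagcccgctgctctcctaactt
EPHA3: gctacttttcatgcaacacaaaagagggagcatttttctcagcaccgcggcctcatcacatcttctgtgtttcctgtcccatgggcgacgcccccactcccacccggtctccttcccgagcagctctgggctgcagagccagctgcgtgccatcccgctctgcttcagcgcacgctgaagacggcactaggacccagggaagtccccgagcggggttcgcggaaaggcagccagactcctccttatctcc
NRN1: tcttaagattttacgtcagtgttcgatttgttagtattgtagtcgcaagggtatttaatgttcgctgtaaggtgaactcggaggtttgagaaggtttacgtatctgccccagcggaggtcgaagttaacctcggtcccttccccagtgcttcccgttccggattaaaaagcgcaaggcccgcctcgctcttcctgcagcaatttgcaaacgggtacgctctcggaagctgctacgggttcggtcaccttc
The GC box was found 5 times in the SLIT2 window, 3 times in that of NRP2, 1 and 5 times in the upstream and downstream windows of EPHA4, and 0 times in those of EPHA3 and NRN1. In the NRP2 window 2 of the matches share a base. Of all 35116 human promoter windows, 42.64% hold it. The CCAAT box was found 1 time, in the downstream window of EPHA4, and the other letters searched were in none of the windows shown. They occur in 32.01% (CCAAT box), 6.34% (E-box), 4.2% (AP-1) and 10.72% (TATA) of all windows. The windows of SLIT2, NRP2, EPHA3 and NRN1 held 30, 29, 15 and 19 CG dinucleotides, where the median window holds 11, and their GC content was 77.2%, 70.0%, 61.2% and 50.8%, where the median is 58.0%. The EPHA4 windows differed from each other, with 9 CG dinucleotides and 43.2% GC upstream, and 30 and 78.0% downstream. Of the 44 genes, 37 had such a window in the table used, and the matches are a description of these letters with no reading of factor binding.

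Among the Eph receptors, 3 of 13 passed in BT-A6sh5 (1 higher, 2 lower, 23.1%) and 1 passed in BT-A6sh2 (higher, 7.69%), shares near the 19% and 9.92% of named genes that passed in either direction. EPHA3, a receptor for A-type ephrins, had log2 levels of 8.36, 8.12, 7.75 and 7.81 in BT-A6sh5, 3.38, 4.09, 3.82 and 3.89 in BT-A6sh2, and 3.94, 3.57, 3.65 and 3.69 in BT-EV. Every BT-A6sh5 array lay above every array of the other lines, which overlapped. The measured log2 fold change was 4.30 in BT-A6sh5 (95% confidence interval 3.92 to 4.68, adjusted p = 1.65e-08, limma), and it passed under all 23 alternative settings. In BT-A6sh2 it was 0.08 with an interval of -0.29 to 0.46 (adjusted p = 0.789). The measured difference between the knockdown lines was 4.22 (adjusted p = 1.86e-08). EPHA3 lay below the median of the background probe sets of its own array on 3 of 4 BT-A6sh2 arrays and 4 of 4 BT-EV arrays, and its mean was 4.02 above that median in BT-A6sh5 on the log2 scale. With the background median of the array in place of each lower value, the mean of EPHA3 in BT-A6sh5 was 15.9-fold higher than in BT-EV and 14.6-fold higher than in BT-A6sh2. This replacement lowers the folds, which depend on the median as the floor and leave out the spread between arrays. In RNA of whole cultures, more or fewer cells that express a gene and more or less of its RNA per cell cannot be told apart.

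EPHA4, a receptor that takes both A- and B-type ephrins, moved in opposite directions. Its log2 level was 6.24, 6.26, 6.0 and 6.43 in BT-A6sh5, 7.61, 7.28, 7.61 and 7.81 in BT-A6sh2, and 6.92, 6.97, 6.94 and 7.02 in BT-EV. No array of a line overlapped those of another line. The log2 fold change was -0.73 in BT-A6sh5 (interval -0.99 to -0.46, adjusted p = 0.00186, limma) and 0.62 in BT-A6sh2 (interval 0.35 to 0.88, adjusted p = 0.0135), and the lines differed by -1.34 (adjusted p = 1.62e-05). The rise in BT-A6sh2 was 0.58 without BT-A6sh2 replicates 1 and 3 and no longer passed (adjusted p = 0.062).

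EPHB4, a receptor for ephrin-B2 known from venous endothelium, had log2 levels of 8.99 to 9.13 in BT-A6sh5, 9.58 to 9.79 in BT-A6sh2 and 9.5 to 9.58 in BT-EV. It fell by 0.48 in log2 units in BT-A6sh5 (adjusted p = 0.00185, limma), had 0.13 in BT-A6sh2 (interval -0.04 to 0.31, adjusted p = 0.311), and was lower in BT-A6sh5 than in BT-A6sh2 by a log2 fold change of -0.61 (adjusted p = 0.000263). EPHA5, another receptor for A-type ephrins, passed only between the knockdown lines (log2 fold change 0.62, adjusted p = 0.00838), with 0.32 in BT-A6sh5 and -0.30 in BT-A6sh2 against BT-EV (adjusted p = 0.204 and 0.182). Without BT-A6sh5 replicate 4, the lowest array of its line for this gene, it passed in BT-A6sh5 against BT-EV as well (log2 fold change 0.45, adjusted p = 0.0381). EPHA1, EPHA2, EPHA6, EPHA7, EPHA8, EPHA10, EPHB1, EPHB3 and EPHB6 passed in no comparison, with log2 fold changes of -0.36 to 0.25 against BT-EV. EPHB1 had -0.36 in BT-A6sh2 (adjusted p = 0.175) and passed there without BT-A6sh2 replicate 3 (-0.52, adjusted p = 0.032). EPHA7 and EPHA10 lay below the median of the background probe sets on 4 and 3 of the 12 arrays.

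Of the 8 ephrins, the ligands of Eph receptors, 4 passed in BT-A6sh5 (2 higher, 2 lower, 50%) and 2 passed in BT-A6sh2 (1 higher, 1 lower, 25%), where 19% and 9.92% of named genes passed. EFNB2 encodes ephrin-B2, a transmembrane ligand of EPHB4. Its log2 level was 8.97, 9.06, 8.95 and 8.98 in BT-A6sh5, 7.94, 8.76, 8.67 and 8.77 in BT-A6sh2, and 8.09, 8.05, 8.09 and 8.02 in BT-EV. All BT-A6sh5 arrays were above all others, and replicate 1 of BT-A6sh2 lay below all BT-EV arrays while the other 3 BT-A6sh2 arrays lay above them. The log2 fold change was 0.92 in BT-A6sh5 (interval 0.58 to 1.27, adjusted p = 0.00229, limma) and 0.47 in BT-A6sh2 (interval 0.12 to 0.82, adjusted p = 0.0862). Without BT-A6sh2 replicate 1 the value in BT-A6sh2 was 0.67 and passed (adjusted p = 0.00124). The lines differed by 0.46 (adjusted p = 0.0661), which passed without BT-A6sh2 replicate 1, 2 or 4 (0.26, 0.53 and 0.53, adjusted p = 0.0349, 0.0408 and 0.0483).

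EFNA5, a membrane-anchored ligand of A-type receptors such as EPHA3, rose in BT-A6sh5. It had log2 levels of 9.42 to 9.58 in BT-A6sh5, 8.89 to 9.05 in BT-A6sh2 and 9.13 to 9.18 in BT-EV, with no overlap between lines. Its log2 fold change was 0.34 in BT-A6sh5 (adjusted p = 0.0123, limma) and -0.19 in BT-A6sh2 (interval -0.36 to -0.03, adjusted p = 0.127), and the lines differed by 0.53 (adjusted p = 0.000507). EFNB1, a transmembrane ligand of B-type receptors, had -0.14 in BT-A6sh5 (interval -0.34 to 0.06, adjusted p = 0.486) and rose by 0.40 in BT-A6sh2 (8.18 to 8.4 in BT-A6sh2 and 7.83 to 7.92 in BT-EV, adjusted p = 0.025). BT-A6sh5 and BT-A6sh2 differed by -0.54 (adjusted p = 0.00168). The rise of EFNB1 in BT-A6sh2 did not pass when any 1 BT-EV array was left out (adjusted p = 0.0576 to 0.0747) or BT-A6sh2 replicates 1 and 3 together (adjusted p = 0.0864).

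EFNB3, the third transmembrane ephrin, fell by 0.48 in log2 units in BT-A6sh5 (8.0 to 8.20 in BT-A6sh5 and 8.52 to 8.61 in BT-EV, adjusted p = 0.00459, limma), with -0.01 in BT-A6sh2 (interval -0.21 to 0.19), and the knockdown lines differed by -0.48 (adjusted p = 0.00384). EFNA3, a membrane-anchored ligand, fell by 0.37 in BT-A6sh5 (6.82 to 7.01 in BT-A6sh5 and 7.25 to 7.30 in BT-EV, adjusted p = 0.0241), with -0.01 in BT-A6sh2 (interval -0.21 to 0.20). This fall did not pass without BT-A6sh5 replicate 3 or 4 or any 1 BT-EV array (adjusted p = 0.0604 to 0.0735), and the difference between the lines of -0.36 (adjusted p = 0.0185) did not pass without BT-A6sh5 replicate 3 or 4 (adjusted p = 0.0504 and 0.0515). EFNA1, a membrane-anchored ligand of EPHA2, had -0.28 in BT-A6sh5 (interval -0.48 to -0.08, adjusted p = 0.0828) and fell by 0.36 in BT-A6sh2 (6.0 to 6.21 in BT-A6sh2 and 6.32 to 6.56 in BT-EV, adjusted p = 0.0362), with a gap of 0.08 between the lines (interval -0.12 to 0.28). The fall of EFNA1 did not pass without BT-A6sh5 replicate 1 or 2, BT-A6sh2 replicate 1 or 3, or any 1 BT-EV array (adjusted p = 0.0509 to 0.102). Without BT-A6sh2 replicates 1 and 3 together it had -0.28 in both lines, which passed in BT-A6sh5 (adjusted p = 0.0454) and failed in BT-A6sh2 (adjusted p = 0.144). EFNA2 and EFNA4 passed in no comparison, with log2 fold changes of -0.41 to -0.02 against BT-EV. EFNA4 had -0.57 in BT-A6sh2 without BT-A6sh2 replicate 1 and passed there (adjusted p = 0.00924), as did its difference of 0.34 between the lines (adjusted p = 0.0292, against 0.19 and 0.384 with all arrays).

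Of the 3 Slit genes, which encode secreted ligands of Robo receptors, SLIT2 rose in both knockdown lines. Its log2 level was 9.01, 9.01, 8.88 and 8.71 in BT-A6sh5, 9.18, 9.23, 9.15 and 9.30 in BT-A6sh2, and 7.72, 7.72, 7.94 and 7.81 in BT-EV. All 8 knockdown arrays lay above all BT-EV arrays. SLIT2 was 2.15-fold higher in BT-A6sh5 (log2 fold change 1.10, interval 0.90 to 1.31, adjusted p = 1.25e-05, limma) and 2.68-fold higher in BT-A6sh2 (1.42, interval 1.21 to 1.63, adjusted p = 2.37e-05). It was lower in BT-A6sh5 than in BT-A6sh2 by a log2 fold change of -0.32 (adjusted p = 0.0374). That difference did not pass without BT-A6sh5 replicate 3 or 4, BT-A6sh2 replicate 2 or 4, or BT-EV replicate 1, 2 or 4 (adjusted p = 0.0525 to 0.0963), nor without BT-A6sh2 replicates 1 and 3 together (-0.37, adjusted p = 0.0505). SLIT3 had log2 levels of 7.09 to 7.15 in BT-A6sh5, 7.24 to 7.84 in BT-A6sh2 and 7.11 to 7.19 in BT-EV. It passed only between the knockdown lines (log2 fold change -0.38, adjusted p = 0.0476), where its highest arrays were BT-A6sh2 replicates 1 and 3, and leaving both out gave -0.15 (adjusted p = 0.213). It kept passing without BT-A6sh2 replicate 2 or 4 alone and failed without any other 1 array (adjusted p = 0.0674 to 0.102). Without BT-A6sh2 replicate 2 it also passed in BT-A6sh2 against BT-EV (log2 fold change 0.44, adjusted p = 0.0265, against 0.36 and 0.0851 with all arrays). SLIT1 had log2 fold changes of -0.04 in BT-A6sh5 and -0.11 in BT-A6sh2 and passed in no comparison.

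Of the 4 netrins, the secreted ligands of DCC and UNC5 receptors, 1 was higher and 1 was lower in BT-A6sh5 (50%, with 19% of named genes), and 0 passed in BT-A6sh2 against BT-EV (9.92% of named genes). NTN1, the founding netrin, had log2 levels of 6.50, 6.64, 6.83 and 6.73 in BT-A6sh5, 6.32, 6.35, 6.42 and 6.31 in BT-A6sh2, and 6.10, 6.37, 6.27 and 5.91 in BT-EV. It rose by 0.51 in log2 units in BT-A6sh5 (interval 0.27 to 0.76, adjusted p = 0.0101, limma), had 0.19 in BT-A6sh2 (interval -0.06 to 0.43, adjusted p = 0.296), and the gap of 0.33 between the knockdown lines failed the test (adjusted p = 0.062) but passed without BT-EV replicate 4 (adjusted p = 0.0493). NTN4, a netrin of basement membranes, fell by 0.58 in log2 units in BT-A6sh5 (9.61 to 9.77 in BT-A6sh5 and 10.26 to 10.28 in BT-EV, adjusted p = 0.000458), with -0.10 in BT-A6sh2 (interval -0.28 to 0.07), and the lines differed by -0.47 (adjusted p = 0.00144).

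NTN3, another netrin, had log2 levels of 6.45 to 6.76 in BT-A6sh5, 4.50, 6.42, 5.73 and 5.88 in BT-A6sh2, and 6.50 to 6.76 in BT-EV. All BT-A6sh2 arrays lay below the others, and they varied widely. Its log2 fold change in BT-A6sh2 was -1.0 with an interval of -1.67 to -0.33 and did not pass (adjusted p = 0.0644, limma). It passed without BT-A6sh2 replicate 1, the lowest array (log2 fold change -0.62, adjusted p = 0.042), and without replicate 2, the highest (-1.26, adjusted p = 0.0131). The difference of 0.98 between the knockdown lines passed (adjusted p = 0.0435), passed also without BT-A6sh2 replicate 1 or 2, and failed without any other 1 array (adjusted p = 0.0504 to 0.099) or without replicates 1 and 3 together (0.46, adjusted p = 0.0708). NTN5 passed in no comparison (log2 fold changes 0.04 in BT-A6sh5 and 0.06 in BT-A6sh2).

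Of the 4 UNC5 receptors, which mediate repulsion by netrins, UNC5A fell by 0.45 in log2 units in BT-A6sh5. It had log2 levels of 6.21, 6.12, 6.39 and 6.51 in BT-A6sh5, 6.85, 6.88, 6.69 and 6.59 in BT-A6sh2, and 6.72, 6.86, 6.67 and 6.78 in BT-EV. All BT-A6sh5 arrays lay below all others (adjusted p = 0.0177 against BT-EV and 0.0128 against BT-A6sh2, limma), and the log2 fold change in BT-A6sh2 was 0.00 with an interval of -0.24 to 0.23. The fall against BT-EV did not pass without BT-A6sh5 replicate 1 or 2 or BT-EV replicate 2 or 4 (adjusted p = 0.0539 to 0.0639). UNC5B, UNC5C and UNC5D passed in no comparison, and UNC5D lay below the median of the background probe sets on 7 of the 12 arrays.

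The neuropilins bind secreted semaphorins and forms of VEGF, the vascular endothelial growth factor. NRP2 had log2 levels of 9.21, 9.19, 9.19 and 8.96 in BT-A6sh5, 6.83, 6.62, 6.88 and 6.50 in BT-A6sh2, and 7.46, 7.53, 7.5 and 7.52 in BT-EV. The lines did not overlap, and BT-EV lay between the knockdown lines. NRP2 was 3.11-fold higher in BT-A6sh5 (log2 fold change 1.64, interval 1.41 to 1.86, adjusted p = 8.75e-07, limma) and 1.73-fold lower in BT-A6sh2 (-0.79, interval -1.02 to -0.57, adjusted p = 0.00187), and the lines differed by 2.43 (adjusted p = 2.62e-08). NRP1 fell in both lines. It had log2 levels of 10.39, 10.31, 10.09 and 10.11 in BT-A6sh5, 10.06, 10.04, 10.04 and 10.04 in BT-A6sh2, and 10.64, 10.72, 10.72 and 10.69 in BT-EV. Its log2 fold change was -0.47 in BT-A6sh5 (interval -0.66 to -0.28, adjusted p = 0.00369) and -0.65 in BT-A6sh2 (interval -0.83 to -0.46, adjusted p = 0.00221), and the gap of 0.18 between them failed the test (interval -0.01 to 0.37, adjusted p = 0.174).

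Of the 9 plexins, the signaling receptors of semaphorins, 4 fell in BT-A6sh5 and 0 rose, while 2 fell in BT-A6sh2 and 1 rose. Of named genes, 12.7% fell and 6.3% rose in BT-A6sh5, and 4.78% fell and 5.13% rose in BT-A6sh2. In BT-A6sh5 against BT-A6sh2, 0 were higher and 6 were lower, where 17.3% of named genes were lower. PLXNA3, a receptor for secreted semaphorins, had log2 levels of 7.26, 7.15, 7.20 and 7.06 in BT-A6sh5, 7.79, 7.55, 7.59 and 7.62 in BT-A6sh2, and 7.80, 8.10, 8.05 and 8.11 in BT-EV. Both falls passed (log2 fold change -0.85 for BT-A6sh5, adjusted p = 0.00013, and -0.38 for BT-A6sh2, adjusted p = 0.0377, limma), and the lines differed by -0.47 (adjusted p = 0.00584). PLXNB3, a receptor for the transmembrane semaphorin-5A, had log2 levels of 5.79, 5.36, 5.49 and 5.67 in BT-A6sh5, 6.32, 5.83, 6.10 and 6.01 in BT-A6sh2, and 6.52, 6.67, 6.45 and 6.67 in BT-EV. Its log2 fold change was -1.0 in BT-A6sh5 (interval -1.27 to -0.72, adjusted p = 0.000275), just short of 2-fold, and -0.51 in BT-A6sh2 (adjusted p = 0.0331), with a difference of -0.49 (adjusted p = 0.0194). For both genes all BT-A6sh5 arrays lay below all BT-A6sh2 arrays, and these below all BT-EV arrays. The fall of PLXNA3 in BT-A6sh2 did not pass without BT-A6sh5 replicate 1, 2 or 3, BT-A6sh2 replicate 3 or 4, or BT-EV replicate 2, 3 or 4 (adjusted p = 0.0512 to 0.109). The same fall of PLXNB3 did not pass without BT-A6sh2 replicate 3 or 4 or any 1 BT-EV array (adjusted p = 0.0544 to 0.0959), and its difference between the lines did not pass without BT-A6sh5 replicate 2 or 3 (adjusted p = 0.0561 and 0.0542). With BT-A6sh2 replicates 1 and 3 left out together, the fall of PLXNA3 in BT-A6sh2 (-0.43, adjusted p = 0.0561) and the difference of PLXNB3 (-0.34, adjusted p = 0.113) failed.

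PLXND1, a receptor for semaphorin-3E in blood vessels, fell by 0.61 in log2 units in BT-A6sh5 (5.67 to 6.09 in BT-A6sh5 and 6.47 to 6.64 in BT-EV, adjusted p = 0.00211, limma), with -0.06 in BT-A6sh2 (interval -0.28 to 0.17), and the knockdown lines differed by -0.55 (adjusted p = 0.00303). PLXNB1, the receptor for semaphorin-4D, fell by 0.56 in BT-A6sh5 (6.01 to 6.64 in BT-A6sh5 and 6.86 to 6.97 in BT-EV, adjusted p = 0.018), with 0.04 in BT-A6sh2 (interval -0.26 to 0.34), and the knockdown lines differed by -0.60 (adjusted p = 0.00886). Its fall against BT-EV did not pass without BT-A6sh5 replicate 4 or BT-EV replicate 2 or 4 (adjusted p = 0.0504 to 0.057). PLXNA2, a receptor for secreted semaphorins, had 0.21 in BT-A6sh5 (interval -0.04 to 0.45, adjusted p = 0.355) and rose by 0.60 in BT-A6sh2 (6.79 to 7.23 in BT-A6sh2 and 6.37 to 6.55 in BT-EV, adjusted p = 0.0112). Its difference of -0.39 between the lines (adjusted p = 0.0307) did not pass without BT-A6sh5 replicate 1, 2 or 4 or BT-A6sh2 replicate 1 or 4 (adjusted p = 0.0613 to 0.0801), nor without BT-A6sh2 replicates 1 and 3 together (-0.35, adjusted p = 0.0928), and the arrays of the knockdown lines overlapped for this gene.

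PLXNA1, also a receptor for secreted semaphorins, had log2 levels of 8.63 to 8.71 in BT-A6sh5, 9.48, 8.90, 9.30 and 8.86 in BT-A6sh2, and 8.75 to 8.78 in BT-EV. It passed only between the knockdown lines (log2 fold change -0.47, adjusted p = 0.0243, limma), and its highest arrays were BT-A6sh2 replicates 1 and 3, without which the difference was -0.22 (adjusted p = 0.0799). It did not pass without BT-A6sh5 replicate 2, 3 or 4 or BT-A6sh2 replicate 3 alone (adjusted p = 0.0522 to 0.059). Against BT-EV, PLXNA1 did not pass in BT-A6sh2 (0.37, adjusted p = 0.0934) but did without BT-A6sh2 replicate 2 (0.44, adjusted p = 0.0394) or replicate 4 (0.46, adjusted p = 0.0456). PLXNA4, PLXNB2 and PLXNC1 passed in no comparison, with log2 fold changes of -0.15 to 0.12 against BT-EV. PLXNB2 passed between the knockdown lines without BT-A6sh2 replicates 1 and 3 (0.34, adjusted p = 0.0282).

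NRN1 encodes neuritin, a small membrane-anchored protein that promotes the outgrowth of neurites. Its log2 level was 6.80, 6.68, 6.61 and 6.66 in BT-A6sh5, 10.83, 10.74, 10.40 and 10.78 in BT-A6sh2, and 10.58, 10.54, 10.48 and 10.62 in BT-EV. All BT-A6sh5 arrays lay below all others by more than 3 on the log2 scale, while BT-A6sh2 and BT-EV overlapped. The log2 fold change was -3.87 in BT-A6sh5 (interval -4.09 to -3.64, adjusted p = 4.97e-10, limma) and 0.13 in BT-A6sh2 (interval -0.09 to 0.36, adjusted p = 0.426), and the lines differed by -4.00 (adjusted p = 6.23e-10). The fall passed under all 23 alternative settings. In BT-A6sh5 the mean of NRN1 remained 2.69 above the median of the background probe sets on the log2 scale.

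**Figure D3:**
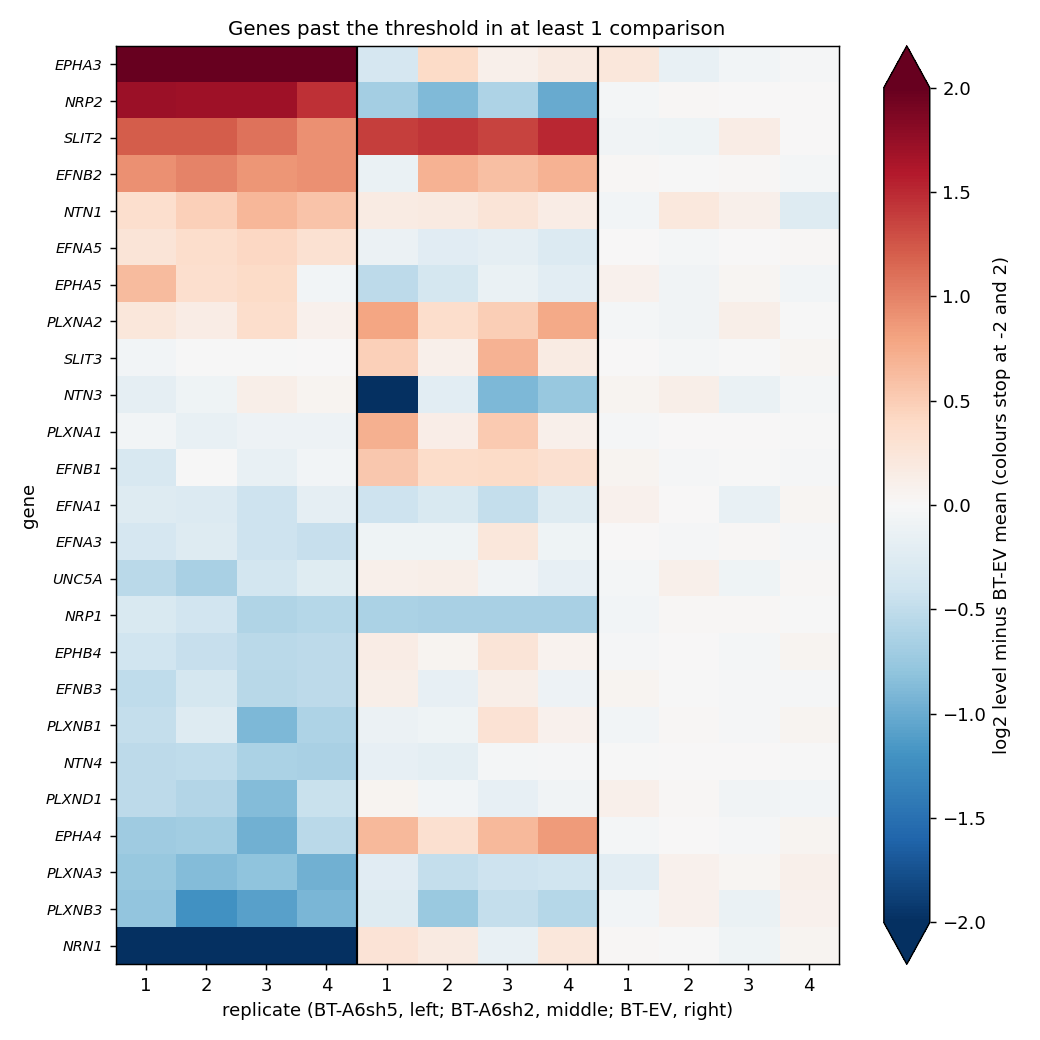
Log2 level minus the BT-EV mean of the gene (colour, which stops at -2 and 2) for the 25 axon guidance genes that passed in at least 1 comparison (rows), on the arrays of BT-A6sh5 (left), BT-A6sh2 (middle) and BT-EV (right), replicates 1 to 4 in each. EPHA3, NRP2, SLIT2 and EFNB2 are red on all 4 BT-A6sh5 arrays, and in BT-A6sh2 replicates 1 and 3 are the reddest for PLXNA1 and SLIT3.

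Ligands and receptors were also counted over the families. In BT-A6sh5, 7 of 15 ligands (4 higher, 3 lower, 46.7% in all) and 10 of 28 receptors and co-receptors (2 higher, 8 lower, 35.7%) passed against BT-EV, with 19% of named genes. In BT-A6sh2 these were 3 of 15 (2 higher, 1 lower, 20%) and 6 of 28 (2 higher, 4 lower, 21.4%), with 9.92% of named genes. Of known partners in BT-A6sh5, the ligand gene EFNB2 rose where its receptor gene EPHB4 fell, and the ligand gene EFNA5 rose with the receptor gene EPHA3. Other genes of the same types did not follow these pairs. EPHA4, which takes both types of ephrin, fell (log2 fold change -0.73), as did the ligand genes EFNA3 and EFNB3 (-0.37 and -0.48). No relation between partners was tested.

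Other genes of these pathways, taken from lists of co-receptors, ligands and signal carriers, were measured for 40 of 55. Of 16 other ligands and receptors, 2 passed in BT-A6sh5 (1 higher, 1 lower, 12.5%), under the 19% of named genes, and 6 passed in BT-A6sh2 (2 higher, 4 lower, 37.5%, with 9.92% of named genes). GPC1, a heparan sulfate proteoglycan that binds Slits, had log2 fold changes of -0.49 (BT-A6sh5) and -0.39 (BT-A6sh2) and fell in both (adjusted p = 0.00411 and 0.0289, limma). NTNG1, a membrane-anchored netrin relative, rose by 0.54 in BT-A6sh5 (adjusted p = 0.0021), with -0.03 in BT-A6sh2. Its mean log2 level of 4.05 in BT-A6sh2 and 4.09 in BT-EV lay near the median of the background probe sets (4.11 and 4.02), which limits the size of this rise. In BT-A6sh2, DCC, a netrin receptor gene, rose by 0.38 on the log2 scale (4.73 to 5.09 in BT-A6sh2 and 4.37 to 4.57 in BT-EV, adjusted p = 0.0365), and FLRT2, a ligand of UNC5 receptors, rose by 0.34 (adjusted p = 0.0263). ADAM10, a protease that cleaves ephrins, fell by 0.31, the chemokine gene CXCL12 by 0.48 and NTNG2, the relative of NTNG1, by 0.48 (adjusted p = 0.0324, 0.0394 and 0.0426). NTNG2 had 0.37 in BT-A6sh5 (adjusted p = 0.106) and differed by 0.85 between the knockdown lines (adjusted p = 0.000785). Between the knockdown lines 7 of the 16 passed (5 higher, 2 lower, 43.8%, with 28.6% of named genes). MET and FLRT3 passed only there (log2 fold changes 0.28 and -0.50, adjusted p = 0.0406 and 0.0441, limma). The mean of FLRT3 lay below the median of the background probe sets in all 3 lines.

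Of 24 signal carriers, 9 passed in BT-A6sh5 (3 higher, 6 lower, 37.5%, with 19% of named genes), and 1 passed in BT-A6sh2 (lower, 4.17%), under the 9.92% of named genes. CHN1, a Rac-inactivating protein known to act below EPHA4 in mouse axons, had log2 levels of 4.64, 4.56, 4.67 and 5.10 in BT-A6sh5, 6.31, 6.55, 6.04 and 6.58 in BT-A6sh2, and 6.79, 6.55, 6.59 and 6.65 in BT-EV. It was 3.74-fold lower in BT-A6sh5 (log2 fold change -1.90, adjusted p = 4.96e-06, limma), with all arrays below those of the other lines. DPYSL5, a member of the collapsin response mediator family, was 2.99-fold lower in BT-A6sh5 (5.22 to 5.84 in BT-A6sh5 and 6.97 to 7.20 in BT-EV, adjusted p = 7.85e-05). NCK2, an adaptor to the actin machinery, fell by 0.86 on the log2 scale and SRGAP1, a GTPase-activating protein of the Slit-Robo route, by 0.50 (adjusted p = 8.34e-05 and 0.00263). ENAH, which extends actin filaments, was 2.4-fold higher (8.75 to 8.98 in BT-A6sh5 and 7.54 to 7.65 in BT-EV, adjusted p = 1.59e-06), and VAV3, a guanine nucleotide exchange factor, was 2.15-fold higher (5.08 to 5.89 in BT-A6sh5 and 4.16 to 4.58 in BT-EV, adjusted p = 0.000759). DPYSL4, of the same family as DPYSL5, rose by 0.33 (adjusted p = 0.0454), and RHOA fell by 0.26 (adjusted p = 0.0384). RRAS, a GTPase that plexins inactivate, was the carrier that fell in both lines, with log2 fold changes of -0.35 (BT-A6sh5) and -0.45 (BT-A6sh2, adjusted p = 0.0241 and 0.0134). CHN1, DPYSL5, NCK2, SRGAP1, ENAH, VAV3 and RHOA also differed between the knockdown lines (log2 fold changes -1.63, -1.68, -1.13, -0.60, 1.37, 1.46 and -0.25, with adjusted p between 7.27e-07 and 0.0356). The mean of VAV3 in BT-A6sh2 (3.99) lay below the median of the background probe sets (4.11), which limits the size of its difference. Between the knockdown lines 12 of the 24 carriers passed (4 higher, 8 lower, 50%, with 28.6% of named genes). DPYSL3 and SRGAP2 (0.37 and 0.27, adjusted p = 0.0308 and 0.0395, limma) passed only there. So did PAK2, VAV2 and SRGAP3 (-0.36, -0.42 and -0.44, adjusted p = 0.014, 0.007 and 0.032).

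**Figure D4:**
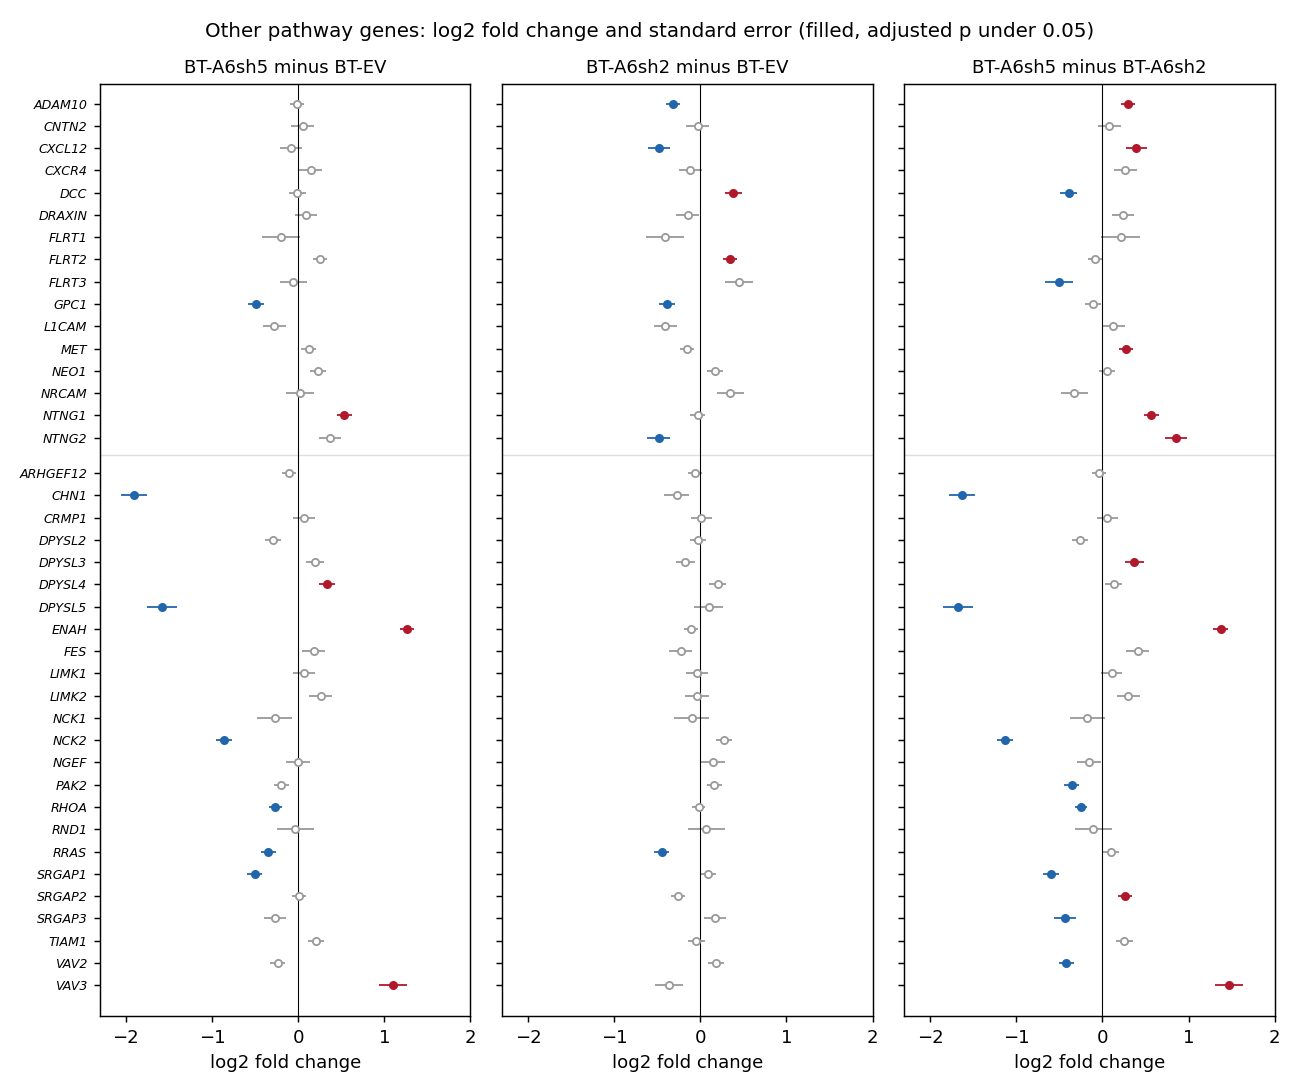
Log2 fold change (horizontal axis) with its standard error for 40 other genes of the axon guidance pathways, ligands and receptors above the line and signal carriers below it, in BT-A6sh5 against BT-EV (left), BT-A6sh2 against BT-EV (middle) and BT-A6sh5 against BT-A6sh2 (right). Filled points passed the test (adjusted p under 0.05), and CHN1, DPYSL5, ENAH and VAV3 are the carriers beyond 1 or -1 in the left panel.

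The 44 genes lie on 16 chromosomes, 7 each on chromosomes 1 and 3. The genes next in order to the 5 genes of largest change were looked up in RefSeq after those values were seen. Only the order of genes was used, and distances between them were not analysed. PROS1, next in order to EPHA3, fell in both lines (log2 fold change -1.39 for BT-A6sh5, adjusted p = 1.35e-06, and -0.51 for BT-A6sh2, adjusted p = 0.00993, limma). PARD3B, next to NRP2, fell by 0.39 in BT-A6sh5 (adjusted p = 0.0102), and INO80D on its other side had 0.03. LCORL, next to SLIT2, fell by 0.48 in BT-A6sh5 (adjusted p = 0.0107), with -0.32 in BT-A6sh2 (adjusted p = 0.0775), and PACRGL on its other side had -0.22 and -0.08 (adjusted p = 0.215 and 0.636). PAX3, next to EPHA4, had 0.08 in BT-A6sh5 and -0.34 in BT-A6sh2 (adjusted p = 0.762 and 0.0547). The genes on either side of NRN1, the gene on the other side of EPHA3 and that on the other side of EPHA4 were not analysed here.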

How the data were processed

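The 12 Affymetrix Human Gene ST arrays (4 per line) were used as deposited log2 values: the authors made them from probe intensities with RMA (background correction, quantile normalization, summary per transcript cluster), and the notes of the submitters list limma, affy and RMA, with no version. The genome build behind the array annotation is not given in the sources used here. Symbols came from the platform annotation, in which 16098 of 53617 rows have 1 symbol, 0 several and 37519 none. A linear model with 3 group means was fitted to all rows with limma 3.58.1 in R 4.3.3 (lmFit, eBayes; residual degrees of freedom 9, prior 2.68). P-values were adjusted by Benjamini and Hochberg over all rows, with a call at 0.05 and a 2-fold limit where stated. Intervals cover 95%, and the number of arrays limits precision. They are not adjusted for the number of rows, so an interval that leaves out 0 can stand beside a test that failed. The code was tested on simulated data. Tables and plots were made in Python 3.11.15 with pandas 2.3.3 and matplotlib 3.10.9.

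The rule for named genes took those past the test with a 2-fold change, with every array, up to 4 further genes per family past the test by adjusted p, and genes of 2 pathway lists past the test. The remaining genes past the test (EFNA1, EFNA3, PLXNA1, PLXNA2, PLXNB1 and others) were named after their values were seen. The clause naming the member of highest level was not used, because levels of different probes are not compared. The genes and lists were chosen with earlier results of these data known. Alternatives were fits of only the lines compared, other priors, filters, scalings, weights and a minimum change of 1.2-fold, the replicate number as a block, a covariate, and leaving out arrays. Replicate numbers did not pair the arrays.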

Additional observations from a re-analysis of the deposited data

Results flagged for a closer look

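Single arrays stood apart within a line for 6 of 135 groups of 4 arrays (4.44%), where chance gives about 1 in 20. These were the log2 levels of NRP2 in BT-A6sh5 replicate 4 (8.96), EFNA3 in BT-A6sh2 replicate 3 (7.49), EFNB2 in BT-A6sh2 replicate 1 (7.94), NRP1 in BT-A6sh2 replicate 1 (10.06), EPHA7 in BT-EV replicate 2 (3.97) and EFNB1 in BT-EV replicate 1 (7.92). In each, the gap to the nearest array exceeded Dixon's critical share of the range of the group.

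The log2 fold change against BT-EV differed between BT-A6sh5 and BT-A6sh2, by limma's test of the difference itself, for 21 of the 44 genes (47.7%). Of named genes 28.6% differed, and of all rows 19.5%. The share with a positive difference (11.4%) was close to that of named genes (11.3%), and the share with a negative one was 36.4%, with 17.3% of named genes. The difference, BT-A6sh5 minus BT-A6sh2, was positive for NRP2 (2.43), NTN3 (0.98), EPHA5 (0.62), EFNA5 (0.53) and EPHA3 (4.22 as measured). EPHA3 lay below the background median on 3 of 4 BT-A6sh2 arrays, and its fold was 14.6 with those values raised to that median. Among receptors and co-receptors it was negative for EPHA4 (-1.34), EPHB4 (-0.61), UNC5A (-0.45), PLXNA1 (-0.47), PLXNA2 (-0.39), PLXNA3 (-0.47), PLXNB1 (-0.60), PLXNB3 (-0.49) and PLXND1 (-0.55). Among ligands it was negative for EFNA3 (-0.36), EFNB1 (-0.54), EFNB3 (-0.48), NTN4 (-0.47), SLIT2 (-0.32) and SLIT3 (-0.38), and NRN1 had -4.00.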

How the results depend on the processing

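Against the main counts (6 higher and 12 lower in BT-A6sh5, 4 and 5 in BT-A6sh2, 5 and 16 between BT-A6sh5 and BT-A6sh2), these settings moved a count by over 1.5 times, and the cause was not tested except where named. The hybridization controls as a covariate gave 3 higher and 1 lower in BT-A6sh5 and 0 and 0 in BT-A6sh2, though all 28 calls lost there kept their direction, at 0.403 to 1.63 times their log2 fold change (median 0.892), and ANXA6 in BT-A6sh2 had -0.86 and did not pass (adjusted p = 0.383, limma). The test against a 1.2-fold change, which asks for more by construction, gave 5 lower in BT-A6sh5, 1 higher and 1 lower in BT-A6sh2, and 3 higher and 3 lower between the knockdown lines. Fitting only the lines compared, with fewer arrays, gave 2 lower in BT-A6sh2 and 9 lower between the knockdown lines. Repeated quantile normalization and median centring each gave 3 lower in BT-A6sh2. With the replicate number as a block, 5 were higher and 9 lower in BT-A6sh5, 3 and 2 in BT-A6sh2, and 5 and 13 between the knockdown lines. Same-numbered arrays deviated with correlations of -0.0764 to 0.0497 over 12 pairs, and 4 of 12 arrays correlated best with their own number, so the numbers do not pair the arrays. Leaving out 1 array at a time gave 6 to 7 higher and 9 to 12 lower in BT-A6sh5, 3 to 6 and 2 to 6 in BT-A6sh2, and 4 to 7 and 11 to 15 between the knockdown lines. The count lower in BT-A6sh2 was 3 without BT-A6sh5 replicate 1 or 2, BT-A6sh2 replicate 3 or 4, or BT-EV replicate 1, and 2 without BT-EV replicate 2, 3 or 4. In those fits ANXA6 ranged from -2.66 to -2.59 in BT-A6sh5, from -1.0 to -0.91 in BT-A6sh2, and from -1.71 to -1.63 between the knockdown lines. Over single genes, 1508 of 1725 values kept their side of the threshold, 188 lost the call and 29 gained one. Among values called in the main fit or the alternative, 0 changed direction. Values called in neither could change sign, such as EPHA5 in BT-A6sh2 against BT-EV (-0.30 in the main fit, up to 0.23 in an alternative). The setting with the row of second highest mean was not run, since no axon guidance gene has several rows. Signal near the median of the background probe sets limits EPHA3 in BT-A6sh2 and BT-EV, EPHA10 and PLXNC1 in BT-A6sh2, and EPHA7 and UNC5D in all 3 lines. Among the other pathway genes named, it limits NTNG1 in BT-A6sh2 and BT-EV, VAV3 in BT-A6sh2 and FLRT3 in all 3 lines. The background probe sets spread widely around that median. The highest had a mean of 8.89 in BT-A6sh5, 9.05 in BT-A6sh2 and 8.87 in BT-EV. Of the 44 genes, 35, 37 and 38 lay below it, so other genes may also be limited by background.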
